A study of Rattus norvegicus with 6 samples.

Results

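Chromosome 10 carried the most accessible regions per megabase of any autosome in a list of open chromatin from the kidneys of Dahl salt-sensitive rats. The chromosome was selected on that density, and its members are every region of the merged list on chromosome 10 in the rn6 build. This gave 9561 of the 151302 regions in the list, or 6.43% of the autosomal regions on 4.30% of the autosomal span. Because its density was the reason for choosing it, density and the spacing that follows from it are given as descriptions without a test. No p-value is given, since neither windows nor chromosomes stand in for replicate animals.

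The list came from ATAC-seq of whole kidney from the inbred Dahl S (SS/Jr) strain, in which salt raises blood pressure and injures the kidney. Of the 6 libraries, 3 were from rats given 1,3-butanediol at 20% in their water, which the series describes as lasting 6 weeks, and 3 were from untreated rats of the same strain. The liver turns 1,3-butanediol into the ketone body β-hydroxybutyrate, and the series asked whether the rise in this ketone changed how renal chromatin is occupied. Males and females were used, and no library is labelled with sex or age. The list holds positions only. Read depth is unknown, butanediol-treated and untreated kidneys were not compared here, and no error between animals can be given.

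In ATAC-seq a transposase inserts adapters into DNA that nucleosomes leave free, so a listed region marks an open stretch of chromatin. In most cells such stretches are active promoters, near the start of genes, and enhancers, which act from a distance and are often more numerous. Chromosomes differ in how many genes they hold, and gene-rich stretches tend to be open more often than gene deserts, the long stretches that hold few genes. Whole kidney mixes the cells of all nephron segments with vessel, stromal and immune cells, so a pooled list of this kind does not say in which cell type a region was open. Neither overlap with genes nor base composition was analysed here, as both need the rn6 genome or its annotation.

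Chromosome 10 was dense in regions of every width class. Over the 112 Mb between its first and its last region it held 85.0 regions per Mb, against a mean of 57.2 ± 8.8 (SD) on the 19 other autosomes. The next densest were chromosome 12 with 74.2, chromosome 20 with 72.3 and chromosome 19 with 71.3 regions per Mb. Open regions covered 4.36% of the span of chromosome 10, against 2.84% ± 0.48 (SD) on the other autosomes, whose highest value was 3.83% on chromosome 12. The density of chromosome 10 was 1.49 times the mean of the others, and its covered share was 1.53 times theirs.

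The ratio of the density on chromosome 10 to that on the other autosomes grew with the width of the regions up to 2 kb. Regions of 200 to 299 bp, the narrowest class, numbered 22.5 per Mb on chromosome 10 against 16.3 ± 2.3 (SD, 19 autosomes), or 1.38 times as many. Regions of 300 to 499 bp were 1.48 times as dense as on the other autosomes, and those of 500 to 999 bp were 1.57 times as dense. Regions of 1000 to 1999 bp numbered 7.07 per Mb against 4.37 ± 1.04, or 1.62 times as many. The difference in regions per Mb did not grow in this way. Among these 4 classes it was largest at 300 to 499 bp, with 30.4 against 20.6, and smallest at 1000 to 1999 bp. In each of these 4 classes chromosome 10 had the highest density of the 20 autosomes. Regions of 2 kb or more numbered 15, or 0.133 per Mb, and here 3 other autosomes were denser, with chromosome 19 highest at 0.161 per Mb.

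**Figure D1:**
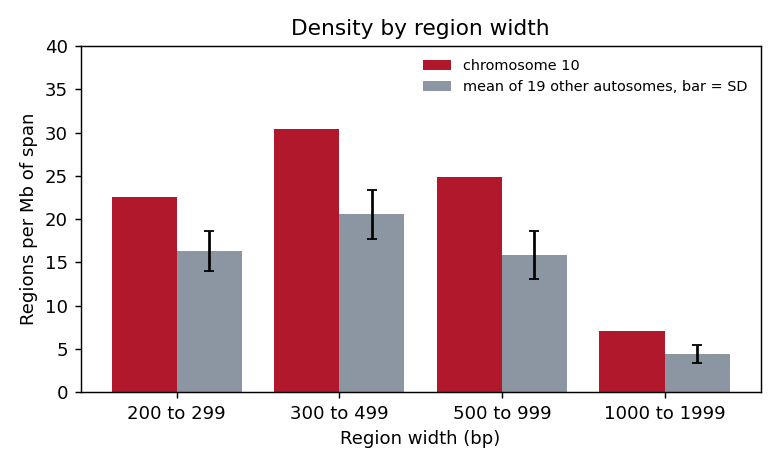
Accessible regions per Mb of span by region width in bp, for chromosome 10 and as the mean of the 19 other autosomes with the SD over them. The bars of chromosome 10 stand above those of the other autosomes in all 4 classes shown, from 22.5 against 16.3 per Mb at 200 to 299 bp to 7.07 against 4.37 per Mb at 1000 to 1999 bp.

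Single regions were only slightly wider than elsewhere. The median width on chromosome 10 was 414 bp (interquartile range 294 to 627 bp), against medians of 387 to 412 bp on the other autosomes. The mean was 512 ± 313 bp (SD over regions), below the 516 bp of chromosome 12. Regions of exactly 200 bp, the smallest width in the list, made up 3.86% of chromosome 10, lower than on any other autosome (3.92% to 5.37%). Regions of 1 kb or more made up 8.47%, and 4 autosomes had a larger share, led by chromosome 12 with 9.19%. The high covered share of chromosome 10 thus came with many more regions and with regions that were wider by 1.03 times on average than the mean of the others.

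The widest region of the chromosome was chr10:56010378-56013319, 2942 bp long and the third widest in the whole list. The second, chr10:57274686-57277378, was 2693 bp long. Both had a close neighbour, at 135 and 139 bp respectively. Next were chr10:72272049-72274622 with 2574 bp and chr10:45321129-45323672 with 2544 bp, and these stood 7651 and 2613 bp from their nearest region. The fifth, chr10:56510746-56512957, measured 2212 bp.

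The other 5 of the 10 widest lay between 2033 and 2176 bp in width. They were chr10:6868904-6871079, chr10:55534306-55536450, chr10:95695400-95697533, chr10:105794910-105796951 and chr10:57290102-57292134. Of the 15 regions of 2 kb or more, 10 lay past the midpoint of the span, where 59.4% of all its regions lie, and 6 lay between 54 and 59 Mb, a stretch singled out after the positions were seen. That stretch held 546 regions in all. The wide regions were found in windows of very different fullness, from 40 regions in the megabase around chr10:6868904-6871079 to 147 around the widest.

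Windows of 1 Mb showed where the surplus lay. The median count over the 111 whole windows of chromosome 10 was 88 regions, with an interquartile range of 47.5 to 125, against a median of 48 (16 to 87) in the 2476 windows of the other autosomes. The mean was 85.8 ± 48.5 against 55.7 ± 43.9 (SD over windows). More windows of chromosome 10 were full: 55 of 111 (49.5%) reached the upper quartile of all autosomal windows, which was 88.5 regions, against 23.9% of the windows elsewhere. Fewer were nearly empty: 13 of 111 (11.7%) were at or below the lower quartile of 17 regions, against 26.0%. On chromosomes 12, 20 and 19 the windows at or above the upper quartile made up 41.2%, 36.4% and 36.1%.

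As a ratio of counts, the fullest windows of chromosome 10 were closer to those of the other autosomes than its emptier ones were. Its maximum of 178 regions was exceeded by 6 autosomes, and chromosome 7 reached 224. The 90th percentile of its windows was 143 regions, below the 149.8 of chromosome 20. Of the 52 autosomal windows with 156 or more regions, 5 were on chromosome 10, which is 9.62% of them. It held 8.50% of the autosomal windows at or above the upper quartile and 4.29% of all autosomal windows, so by share of windows it was over-represented among the full ones. Sorted by count and taken in 5 equal groups, the emptiest windows of chromosome 10 averaged 15.5 regions against 4.78 elsewhere, a ratio of 3.24. In the middle group the averages were 90.6 and 48.9, a ratio of 1.85, and in the fullest group they were 147.9 and 124.1, a ratio of 1.19. The middle group and the one above it held 27.7% and 29.1% of the surplus, and the fullest group held 15.8%. The second group held 20.3%, and the emptiest, where the ratio was highest, held the least, 7.13%.

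**Figure D2:**
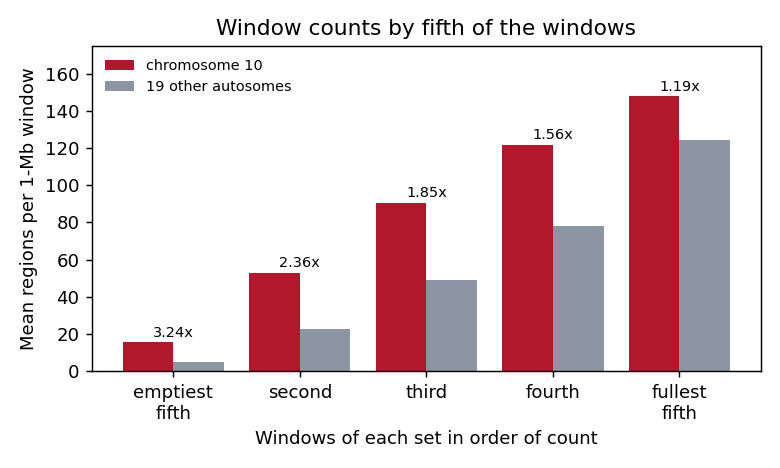
Mean number of regions per 1-Mb window after the windows of chromosome 10 and of the 19 other autosomes were each sorted by count and taken in 5 equal groups, with the ratio of the means above each pair. The ratio falls from 3.24 in the emptiest group to 1.19 in the fullest.

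Measures of how uneven the windows were gave different orders. The SD of the counts, 48.5 regions, was exceeded on only 2 autosomes. Relative to the mean, which is the density that the chromosome was selected on, the SD was 0.565, the lowest of the 20 autosomes, whose other values ran from 0.591 on chromosome 17 to 0.894 on chromosome 13. This relative SD was also the lowest in windows of 500 kb (0.659) and of 2 Mb (0.481), and in 1-Mb windows shifted by 500 kb, where chromosome 17 had the same value of 0.587 after rounding. To gather 50% of the regions took 30.6% of the windows, against 24.3% ± 2.6 (SD) on the other autosomes and 29.4% on chromosome 12, the next highest. The variance of the counts was 27.4 times their mean, and only chromosome 17 had a lower ratio, at 22.2. This ratio rises with the mean count, which was highest on chromosome 10, so its rank compares autosomes of unlike density. In windows shifted by 500 kb the ratio was 29.4 and 5 autosomes were lower, and in windows of 500 kb it was 18.5 and 4 were lower. Counts of adjoining windows had a Pearson r of 0.46 over 110 pairs, which share borders and local sequence, and the median over the other autosomes was 0.48. At a distance of 5 Mb the r was -0.098 over 106 pairs.

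Along the chromosome, dense and sparse stretches alternated, and the later part was fuller. Before the midpoint, at 56.4 Mb, there were 69.0 regions per Mb, and after it there were 101.0. The larger value was 1.46 times the smaller, and 6 autosomes were more lopsided than this. In segments of 10 Mb the density ran from 28.4 regions per Mb between 20 and 30 Mb to 117.3 between 100 and 110 Mb. The segment between 80 and 90 Mb was almost as dense, with 117.1, and the segment between 10 and 20 Mb had 105.5. Regions of 1 kb or more made up 2.82% of the sparsest segment (8 of 284) and 9.89% of the densest whole segment (116 of 1173). Between these the share did not rise steadily with density. It was 9.38% in the segment with 78.9 regions per Mb and 7.68% in that with 100.3.

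The longest dense stretch was chr10:103000001-111000000. All 8 of its windows were at or above the upper quartile, with 117 to 178 regions each and 1125 in all. Chromosomes 7 and 19 had longer stretches of this kind, of 11 and 9 windows, and chromosome 5 had one of 8. Stretches of 5 windows followed at chr10:13000001-18000000 with 677 regions, chr10:61000001-66000000 with 608, chr10:82000001-87000000 with 727 and chr10:88000001-93000000 with 616. The last 2 were parted by a single window of 61 regions.

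The densest window was chr10:109000001-110000000, with 178 regions over 10.3% of its bases and 25 regions of 1 kb or more. Next were chr10:86000001-87000000 with 174 regions and chr10:106000001-107000000 with 171. Windows chr10:75000001-76000000, chr10:16000001-17000000 and chr10:89000001-90000000 held 158, 157 and 154. The 10 densest were completed by chr10:11000001-12000000 with 148, chr10:56000001-57000000 with 147, and a tie at 144 between the windows that start at 37000001, 84000001 and 94000001. In the whole autosomal list the densest window of chromosome 10 ranked 13.

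Sparse stretches were short. The longest run of windows at or below the lower quartile was chr10:25000001-28000000, 3 windows with 25 regions between them. Of the other autosomes, chromosome 13 had a run of 22 such windows, and only chromosome 17, with 2, had a shorter longest run, while chromosome 12 also had 3. The sparse stretch on chromosome 10 lay within a longer poor belt, since the 7 windows from 21 to 28 Mb held 20, 5, 16, 18, 16, 8 and 1 regions. A smaller one, chr10:79000001-81000000, held 10 regions in 2 windows.

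The sparsest window, chr10:60000001-61000000, was the only one with no listed region. It was bounded by windows of 124 and 112 regions, so the count dropped by 124 and rose by 112 from one megabase to the next. It lay in the longest gap of the chromosome, chr10:59947336-61166073, 1.22 Mb long. The next sparsest windows were chr10:27000001-28000000 with 1 region, chr10:79000001-80000000 with 2 and chr10:22000001-23000000 with 5. Windows chr10:26000001-27000000, chr10:44000001-45000000 and chr10:80000001-81000000 had 8 each. A step as steep as that into the empty window lay at 41 Mb, where the count went from 134 to 10. Whether such empty stretches hold closed chromatin or sequence in which reads cannot be placed was not tested.

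**Figure D3:**
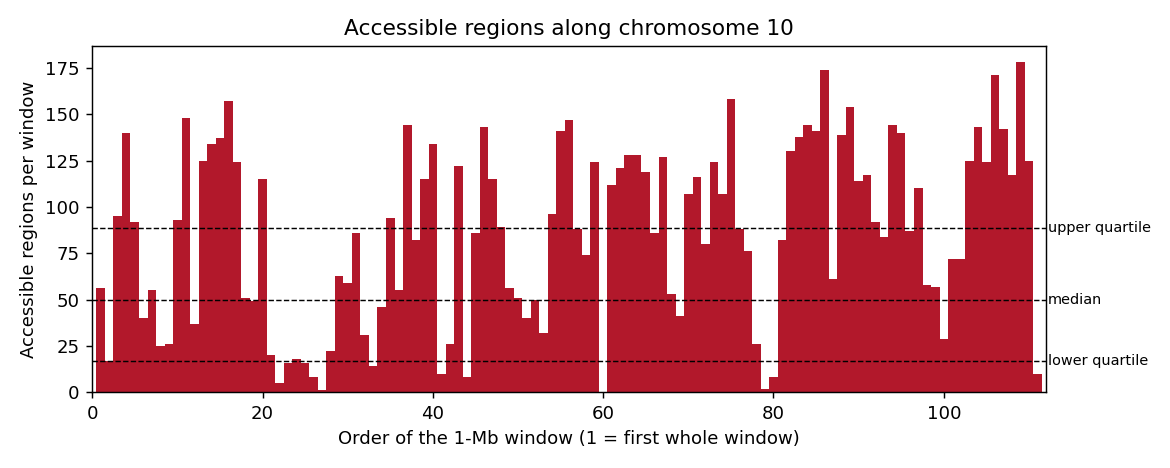
Number of accessible regions in each of the 111 whole 1-Mb windows of chromosome 10, in their order along the chromosome; dashed lines mark the lower quartile, median and upper quartile of all autosomal windows (17, 50 and 88.5 regions). Of the 111 windows, 55 reach the upper line, windows 21 to 27 hold 1 to 20 regions each, and 1 window is empty.

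As a ratio of shares, the gaps of chromosome 10 differed most from those of the other autosomes among the long ones. The median gap between neighbouring regions, edge to edge, was 4837 bp (interquartile range 1534 to 10124 bp), against a median of 5655 bp (1837 to 13085 bp) over the gaps of the other autosomes. Chromosome 20 had nearly the same median, 4831 bp. At the 90th percentile the gap was 21160 bp on chromosome 10, the lowest of the 20 autosomes, against 32429 bp for the others together. Gaps under 250 bp made up 8.28% of all gaps on chromosome 10 and 7.25% elsewhere, 1.14 times as large a share. Gaps of 20 to 50 kb made up 7.48% against 10.2%, or 0.731 times the share, and gaps of 100 kb or more made up 1.43% against 2.82%, or 0.509 times. In points of share, short gaps differed as well. Gaps of 2000 to 4999 bp made up 22.1% against 19.4%, a difference about as large as that at 20 to 50 kb.

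Gaps over 100 kb took up 26.5% of the span, the smallest share of the 20 autosomes, where the others ran from 26.8% on chromosome 19 to 49.6% on chromosome 2. Gaps over 500 kb numbered 9 and took up 6.60%, and chromosome 17 had less, with 3.77%. After the gap of 1.22 Mb, the longest were chr10:27242346-28300003 with 1.06 Mb, chr10:111259999-112280067 with 1.02 Mb, chr10:78999724-79811123 with 0.811 Mb and chr10:12056104-12839300 with 0.783 Mb. The last of these cut into a dense part of the chromosome, next to the window of 148 regions at 11 Mb.

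**Figure D4:**
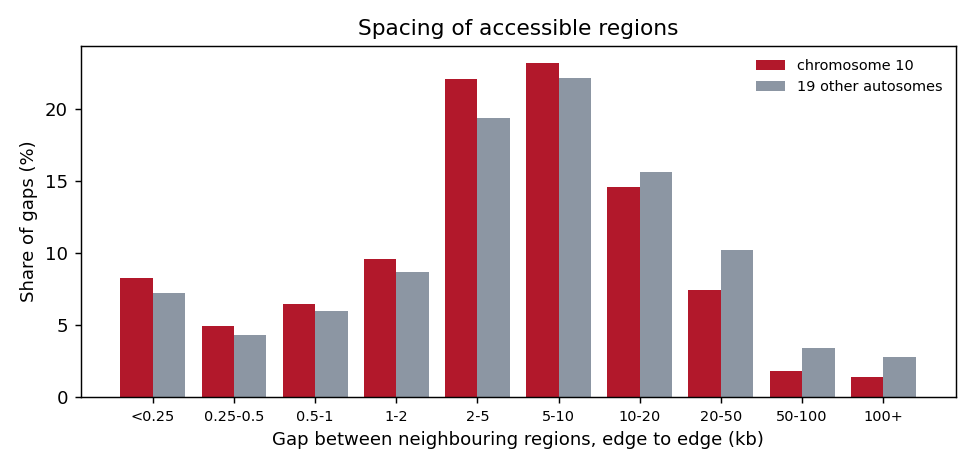
Share of gaps between neighbouring regions by length in kb, as percent of the 9560 gaps of chromosome 10 and of the 139121 gaps of the 19 other autosomes. Classes under 10 kb hold a larger share on chromosome 10 and classes from 10 kb up hold a smaller one, down to 1.43% against 2.82% at 100 kb or more.

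At short range the difference from the other autosomes was smaller once windows of like fullness were compared. On chromosome 10, 35.2% of regions had another within 1 kb, against a mean of 31.8% ± 1.2 (SD, 19 autosomes) and 35.0% on chromosome 20. In windows of 125 to 149 regions the share was 37.3% on chromosome 10 and 36.0% elsewhere. In windows of 25 to 49 regions it was 26.8% and 27.1%, the only class of window counts in which chromosome 10 was lower. Weighted to the same mix of window counts as chromosome 10, the other autosomes had a mean share of 33.7% ± 1.0 (SD) with a range of 32.1% to 35.8%, against 35.3% for the regions of chromosome 10 in whole windows, and 2 of the 19 were above it.

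The difference in median width did not shrink in this way in every class. In windows of 1 to 24 regions the median width was 365 bp on chromosome 10 and 353 bp on the others. It was 399 and 380 bp at 25 to 49 regions, 392 bp on both at 50 to 74 regions, 422 and 417 bp at 125 to 149 regions, and 448 and 416 bp at 150 or more, where chromosome 10 had only 6 windows. Regions of 1 kb or more made up 8.47% of the regions in whole windows of chromosome 10, against 8.13% ± 0.58 (SD) on the other autosomes at the same mix of window counts. Of the 19 others, 6 were above it, from a range of 7.25% to 9.33%.

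Tight runs of 4 or more regions were more frequent per Mb on chromosome 10 than on any other autosome. A run here is a row of regions with gaps under 500 bp between them. There were 27 runs of 4 or more regions on chromosome 10, 11.1% of the 243 such runs on all autosomes. This was 0.240 runs per Mb against 0.0869 ± 0.0231 (SD, 19 autosomes), whose highest value was 0.143 on chromosome 20. Per 1000 regions in whole windows there were 2.83 on chromosome 10 and 1.52 ± 0.35 (SD) on the others, with chromosome 18 highest at 2.19. At the rate of the other autosomes in windows of like fullness, the regions of chromosome 10 would have made 17.3 runs, a value given without a test. Of the 27 runs, 18 lay in windows of 75 to 124 regions, a range singled out after the runs were seen. Per 1000 regions these windows had 5.08 runs (75 to 99 regions) and 4.76 runs (100 to 124 regions) on chromosome 10, against 1.57 and 1.90 elsewhere. Its 6 windows of 150 or more regions held none, where the rate of the other autosomes would give 2.57.

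The longest run was chr10:71158007-71162179, in which 6 regions of 249 to 742 bp filled 2745 of 4173 bp. One run of 5 regions lay at chr10:3864969-3867076, 2108 bp long, with regions of 250 to 509 bp. The other 25 runs held 4 regions each. Of the 36 runs of 5 or more regions on all autosomes, 2 were on chromosome 10. That is close to the 6.43% of autosomal regions it holds, and 2 runs are too few to tell the shares apart. Of the 27 runs, 3 fell in the single window at 11 Mb, between chr10:11114747-11117120 and chr10:11204837-11208709, and 2 each fell in chr10:71000001-72000000, which holds the longest, and chr10:81000001-82000000. These windows were singled out after the runs were seen. Shorter runs were common, with 923 pairs and 131 triplets, and 24.6% of the regions of chromosome 10 belonged to a run.

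At the median, wide regions of chromosome 10 lay farther from their neighbours than narrower ones did. For regions of 1 kb or more the nearest other region was 4236 bp away at the median, and for narrower ones 1898 bp, so the wide ones were 2.23 times as far. This did not hold for each wide region: the 2 widest had a neighbour at 135 and 139 bp, and the next 2 at 7651 and 2613 bp. No other autosome was measured in this way here. Gaps beside a wide region numbered 67 at 2500 to 3499 bp, 93 at 3500 to 4499 bp, 145 at 4500 to 5499 bp and 129 at 5500 to 6499 bp. Between regions both below the median width the counts fell over the same classes, with 221, 163, 143 and 115. These classes cover only part of the range of gap lengths, and the counts are for chromosome 10 alone. Since chromosome 10 is part of the whole list, they are no independent support for a like order there, which is not given here.

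Chromosome 10 also carried the most protein-coding gene names for its length. The RefSeq table of the GRCr8 assembly places 1788 protein-coding genes on it, or 15.9 per Mb of the rn6 span, against 8.37 ± 2.54 (SD) on the other autosomes, 1.90 times as many. With names of the LOC type counted, chromosome 19 came next with 13.8 and chromosome 12 with 12.8. With names of any biotype chromosome 10 had 26.2 per Mb, and chromosome 12 was higher with 26.9. These names were counted by chromosome alone, and no gene was placed on a region, since the assemblies differ. Over the 20 autosomes the density of regions and of gene names had a Pearson r of 0.92 and a Spearman rho of 0.88, and without chromosome 10 the r was 0.87 over 19. Without chromosomes 10 and 19, the 2 farthest from the median, the r was 0.85. Both densities were divided by the same span, and the points come from a single list.

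For each protein-coding gene chromosome 10 had few regions, as other gene-dense autosomes did. It held 5.35 regions per protein-coding gene name, against 7.14 ± 1.24 (SD, 19 autosomes), and only chromosome 19 had fewer, at 5.15. Chromosomes 12, 20, 1 and 3, which follow chromosomes 10 and 19 in gene names per Mb, had 5.82, 6.34, 5.37 and 5.53. Chromosome 6 had the most, at 9.44. With names of the LOC type left out, the value for chromosome 10 was 5.51, the lowest of the 20. That of chromosome 19 rose to 8.21, since only 541 of its 862 names were left. Its low value thus depends on names of the LOC type. With gene names of any biotype it was 3.25, and 8 autosomes were lower. A straight line through the other 19 autosomes passes at 79.9 regions per Mb for the gene density of chromosome 10. That density, 15.9 per Mb, lies beyond the highest of the 19, 13.8, so the line is extended past its points. The 85.0 found lay above the line by little more than the scatter of the others around it (SD 4.39). This SD leaves out the error of extending the line.

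**Figure D5:**
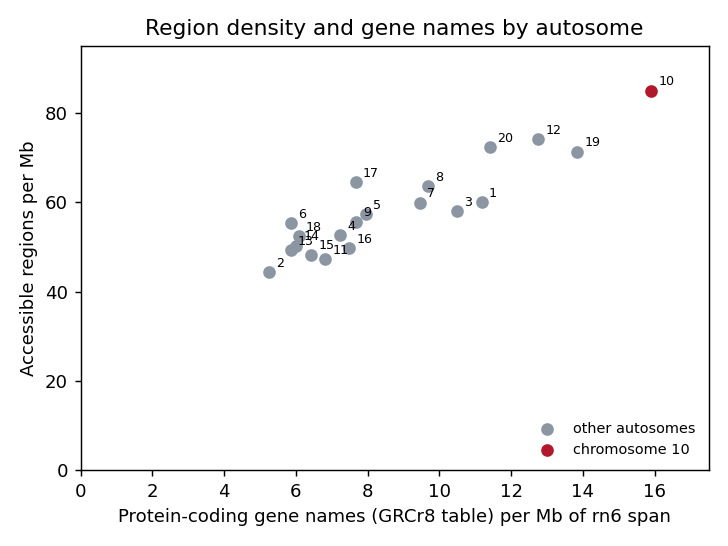
Accessible regions per Mb (vertical axis) against protein-coding gene names of the GRCr8 table per Mb of rn6 span (horizontal axis), 1 point for each of the 20 autosomes. Chromosome 10 is highest on both axes, at 85.0 regions and 15.9 gene names per Mb.

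Of 62 genes listed for blood pressure, nephron transport and ketone metabolism, 4 (6.45%) were on chromosome 10, close to the 7.72% of all protein-coding names in the table that it holds. Of 25 genes of the renin-angiotensin system and blood pressure control, 2 were placed there: Ace, which encodes the enzyme that makes angiotensin II, and Nos2, the inducible nitric oxide synthase. Of 25 genes of nephron transport, 2 were there as well: Wnk4, a kinase that regulates salt reabsorption in the distal convoluted tubule, and Slc4a1, a chloride and bicarbonate exchanger of acid-secreting cells in the collecting duct. None of the 12 genes of ketone metabolism was on it. Whether any of these genes has an open region beside it was not analysed here. Other gene names on the chromosome included 136 with an olfactory receptor symbol, 84 tRNA genes and 37 miRNA genes. For tRNA and miRNA genes 2 autosomes had more names, and for olfactory receptors 3 had more.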

How the data were processed

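Flash-frozen kidney of 6 Dahl S rats was assayed by ATAC-seq, with 50000 nuclei tagmented per library by the Omni-ATAC procedure and paired reads of 150 bases, per the labels' protocols. Reads went through FastQC, Trim Galore and cutadapt and positions are in rn6, per the submitters' processing notes. Not given in the sources used here: aligner, peak caller, thresholds, transposase shift and merging rule. The authors deposited 1 merged list of regions with positions in bp and no value per library, so depth was unknown and the treatment groups were not compared.

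Positions were read as 0-based starts and are printed 1-based. Density counts regions per Mb of span, from a chromosome's first region through its last. Regions were assigned to 1-Mb windows by midpoint, and only whole windows were used. Gaps run edge to edge. Runs join regions less than 500 bp apart. Named regions are the 10 widest, the 10 densest and 5 sparsest windows with ties, the 5 longest gaps, runs of 5 or more regions and the longest dense and sparse stretches. Gene names per chromosome came from RefSeq's GRCr8 table, and all 62 genes listed were found. Computation used Python 3.11.15, numpy 2.4.6, pandas 2.3.3, scipy 1.17.1 and matplotlib 3.10.9, and the statistics were checked on simulated lists. The chromosome, the lists and the measures were chosen with earlier results of these data known.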

Additional observations from a re-analysis of the deposited data

How the results depend on the processing

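Under 6 alternatives chromosome 10 remained the densest autosome, at 1.46 to 1.53 times the mean of the others: the ratio was 1.49 as deposited, 1.53 for covered bases and 1.53 for regions of at least 300 bp alone. With those regions alone (7030 left), the median window held 65 regions, the median gap was 6410 bp, the share with a neighbour within 1 kb was 26.7% and the median width was 507 bp, behind 2 autosomes. With regions less than 500 bp apart joined, the median gap was 5774 bp and the median width 466 bp, second to chromosome 12. Without regions of exactly 200 bp the median width was 427 bp. A neighbour lay within 500 bp for 24.6% and within 2 kb for 50.1% of regions. Chromosome 20 was lower at 500 bp (23.7%) and higher at 2 kb (50.9%). It was also higher at 1 kb with regions of at least 300 bp alone (27.7%). The variance to mean ratio of the counts was 18.5 in windows of 500 kb, 39.7 in windows of 2 Mb and 29.4 in windows shifted by 500 kb. It rises with the mean count, so values at different window lengths are not comparable. Counting gene names without LOC symbols or of any biotype was chosen after seeing the data. No paired analysis was possible because values per library were not part of the list. A region missing from the list may be closed or below the caller's threshold, which unknown depth does not resolve.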
